A study of Sus scrofa with 20 samples.

Results

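The genes described here are 40 genes that mark or build the endothelium, the cell layer that lines blood and lymph vessels. They were read in RNA-seq libraries of newborn pig biliary tree and of pig liver. The genes were taken by symbol from a fixed list, and 37 of the 40 had a row among the 25764 genes of the deposited table. CLDN5, ECSCR and SELE had none. The list covers junction and surface proteins, the ligands and receptors of the vascular endothelial growth factor (VEGF) and angiopoietin pathways, receptors of the bone morphogenetic protein family, arterial and Notch genes, transcription factors, further signalling genes, and proteins of activated endothelium. Levels are normalized counts, that is, gene counts scaled by the authors between libraries. They are compared only within a gene and not between genes.

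The series held 20 libraries of 6 groups. Porcine biliary tree stem/progenitor cells (pBTSCs) gave 5 libraries, labelled as gallbladder. By the study's methods these came from the gallbladder and extrahepatic ducts of newborn piglets, each library from a piglet of its own, with S2, S7 and S11 from animals of an H2B-GFP line, whose nuclei carry a fluorescent histone expressed from the ACTB locus, and S15 and S20 from wild-type animals of mixed breed. The methods describe pBTSCs as selected for CD45- and EpCAM+ cells and held for hours in serum-free medium to form cell clusters (organoids). The paper states that such organoids also held angioblasts and precursors of endothelium and stellate cells. The other 15 libraries came from liver cells sorted by surface antigen. The CD45+ sort gave 5, CD45-/EpCAM+ gave 4, and CD45-/EpCAM-, CD31+ and CD146+ gave 2 apiece. CD45 marks leukocytes, EpCAM marks epithelium, and CD31 and CD146 are the products of the member genes PECAM1 and MCAM. Neither the genotype nor the age of the animal behind each liver library is given by the labels, and no group carried a treatment. The pBTSCs of S2 to S11 were H2B-GFP and those of S15 and S20 wild-type, so that genotype and label number cannot be told apart in them.

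Endothelial cells hold to one another through VE-cadherin, PECAM1 and related junction proteins. They sprout, survive and rest under the control of VEGF receptors, which respond to VEGF ligands, and of the receptor TEK, which angiopoietins switch on or block. Vessels of different beds carry different sets of these genes. Liver sinusoids are lined by a fenestrated, scavenging endothelium that takes up macromolecules through the stabilins, whereas ducts and gallbladder are supplied by arterial and capillary vessels with continuous or diaphragmed walls. P-selectin and von Willebrand factor are stored in endothelial granules and are released when the cells are activated.

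The libraries were divided by label number into 5 runs of neighbours, a new run being started at each pBTSC library. The runs were S2 to S5, S7 to S9, S11 to S14, S15 to S19 and S20 to S23. Label numbers are missing between S5 and S7 and between S9 and S11. From S11 to S23 they are unbroken, so the bounds there rest on the place of the pBTSC libraries alone. The sources used here do not say whether a run is an animal. The step between the lowest values put depth at 21200000 to 77900000 reads in 17 libraries and far lower in 3, S13 (CD45-/EpCAM+, 801000 reads), S15 (pBTSC, 1570000) and S22 (CD146+, 455000). Members at or under 3 reads were TAL1 (none), LYL1 and SELP in S22, and TAL1 and LYL1 in S13. The paper lists lower RNA integrity for the pBTSC samples S2, S7 and S11 than for S20. It lists no integrity value for S15 or for the liver libraries. The part of RNA integrity in the levels was not tested. PTPRC, which encodes CD45, did not follow the CD45 sort. It was at 424, 1153, 2687 and 1227 in the CD45+ libraries S3, S8, S12 and S18. S4, S9, S13 and S19, the CD45-/EpCAM+ libraries of the same runs, held 450, 2460, 3027 and 1364. EPCAM was at 2095, 2232, 1415 and 1198 in the former and 1779, 1760, 1205 and 1241 in the latter. The sum of 8 leukocyte genes was 4598 to 18044 in CD45+ and 18597 to 18920 in CD45-/EpCAM- libraries. All groups of liver libraries carried hepatocyte RNA, and the sorts for CD31 and CD146 were no exception. The summed level of 8 hepatocyte genes was 1981569 to 2724124 normalized counts in the CD31+ and CD146+ libraries, against 2184299 to 2522479 in the other sorts of S16 to S23, 958041 to 2330481 in the liver libraries of S3 to S14 and 26281 to 72064 in pBTSCs. Among pBTSCs, ALB was at 19832 and 25087 in S15 and S20 and at 376, 287 and 288 in S2, S7 and S11. FGB went the same way (1704 and 3237, against 42, 84 and 72). APOA1, at 22643 to 27517 in pBTSCs, did not.

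The libraries sorted for endothelial antigens did not stand apart in the endothelial genes. PECAM1, which encodes CD31 itself, an adhesion receptor of endothelial junctions, was at 25291 normalized counts in S16 and 20102 in S21, the CD31+ libraries. It was at 26682, 25978 and 19884 in S18, S19 and S23, the CD45+ and CD45-/EpCAM+ libraries of the same label range. The CD146+ libraries S17 and S22 held 28778 and 20655. Values followed the run rather than the sort, with S16 to S19 all above S21 to S23, and the groups overlapped.

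MCAM, which encodes CD146, an adhesion molecule of endothelium and pericytes, was at 5226 and 4615 in the CD146+ libraries S17 and S22. The CD31+ libraries held 4751 and 3672, and the other sorts 4594, 4615 and 3803. Each CD146+ value was the highest among the liver libraries of its run, but over both runs the groups overlapped. The CD31+ and CD146+ libraries together exceeded the other 3 by 0.07 on the log2 scale for MCAM (95% interval -0.24 to 0.38) and differed by -0.03 for PECAM1 (-0.43 to 0.36). An exact permutation test, two-sided, gave p = 0.743 and 0.971, where the smallest p that 4 libraries against 3 allow is 0.0571. The permutation pooled both sorts and ran across both runs, so it does not test MCAM in the CD146+ sort within a run. There MCAM exceeded the other sorts by 0.18 in S17 and 0.28 in the shallow S22.

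In S16 to S23, 0 of the 37 members were called between the CD31+ and CD146+ libraries and the other sorts, and the background was 0% of the 14324 genes tested. A call here and below is an adjusted p under 0.05 in limma-trend, Benjamini-Hochberg over all genes tested, with an absolute log2 fold change above 1. At an unadjusted p under 0.05 the fit held 0 members and 6 genes in all. The members' median difference was -0.03 and that of all genes -0.02. With the run as a term the call count was again 0, the members' median was 0.00 and 11 genes had an unadjusted p under 0.05. The intervals then narrowed to -0.11 to 0.18 for PECAM1, -0.09 to 0.32 for MCAM, -0.18 to 0.17 for CDH5 and -0.22 to 0.16 for KDR.

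Taken alone, neither sort gave a call among the members (0% of all genes for each, with 1 gene for CD31+ and 208 genes for CD146+ at an unadjusted p under 0.05). For CD146+ that 0 did not hold without S17, with the shallow S22 as its lone library. Of all members, GJA4 and GJA5, the connexins 37 and 40 of arterial gap junctions, were the ones with both CD146+ libraries above the other sorts, by 0.15 (interval -0.06 to 0.36) and 0.10 (-0.11 to 0.30), where 7.34% of all genes lay that way. GJA5 stood at 5369 in S17 and 5217 in S22, against 4974, 4714 and 5183 in S18, S19 and S23. No member had both CD146+ libraries below the other sorts (10.1% of all genes). For CD31+ 0 members lay wholly above (3.38% of all genes) or below (2.67%), and for both sorts together 0 lay above (0.677%) or below (0.838%).

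Within a run the sorts were close to each other. S16 (CD31+) differed from the mean of S18 and S19 by a median of 0.04 over the members, with extremes of -0.16 for SELP and 0.29 for TAL1. S17 (CD146+) differed by a median of 0.11 and by at most 0.21, for VEGFC. S21 (CD31+) differed from S23 by a median of -0.04. The shallow S22 (CD146+) differed from S23 by a median of -0.18, and its TAL1, at no read, by -6.60. Members above 0 numbered 27 of 37 in S16 and 34 in S17, but 9 in S21 and 9 in S22, so that most members changed sign between the runs in both sorts. Of all genes 50.9, 50.9, 52.9 and 44.2% lay above 0 in the same order. Apart from TAL1 in S22 no member differed by more than 1, as did 21.5% of all genes in S22 and 0.44 to 0.579% in the others.

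**Figure D1:**
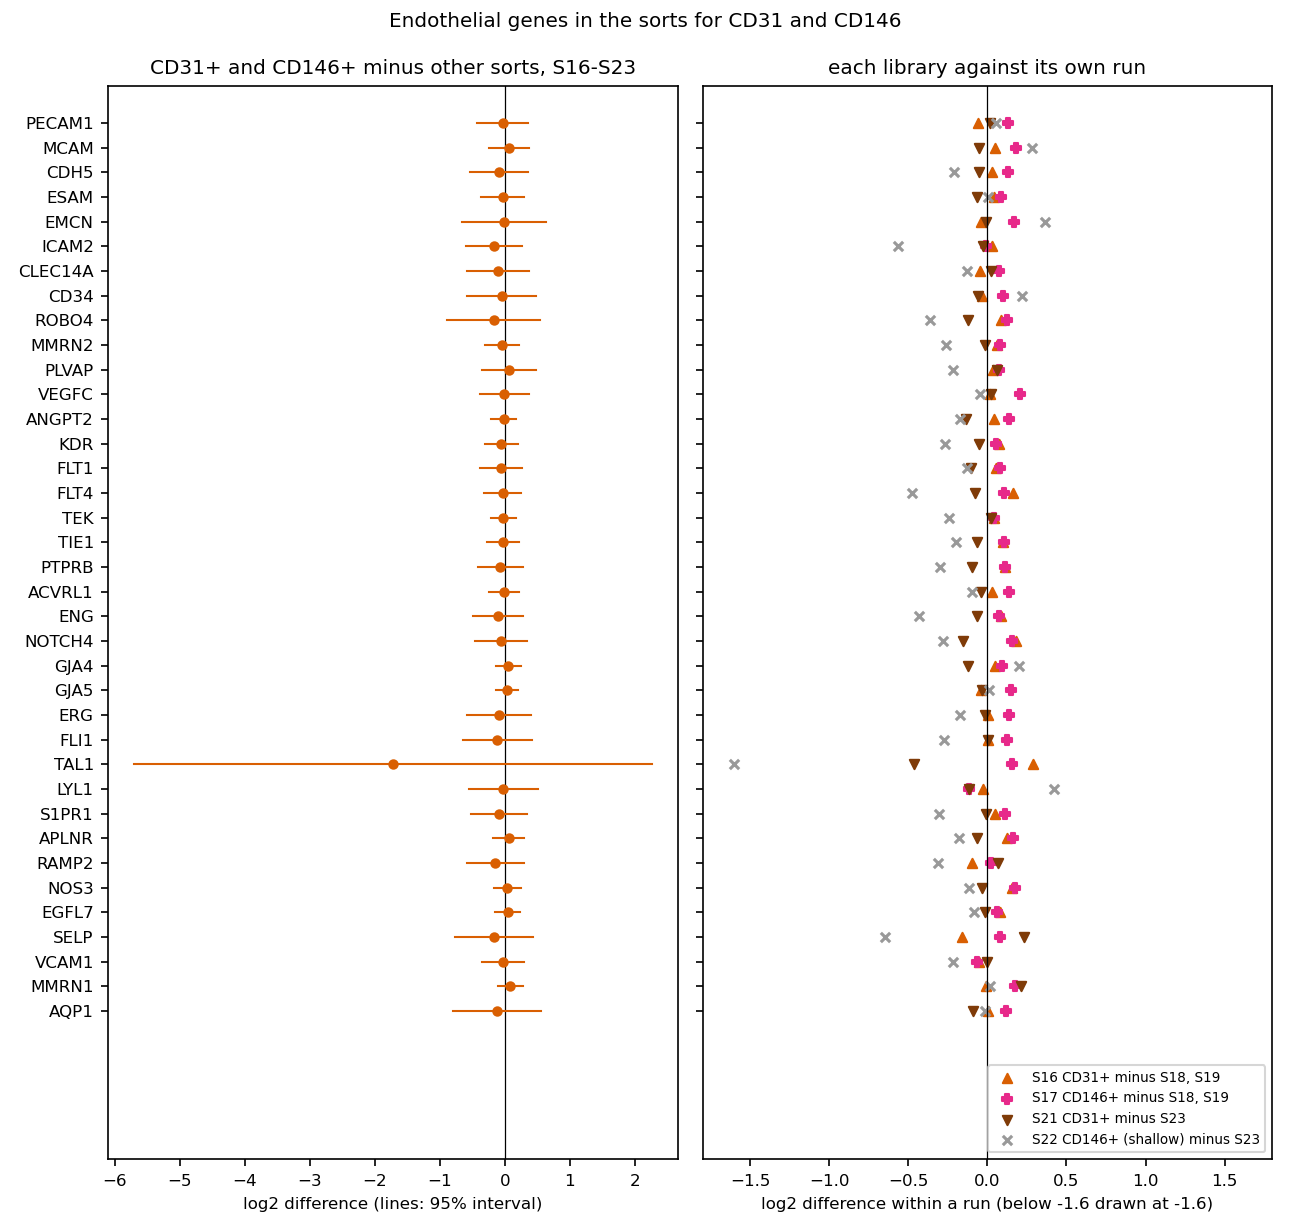
Differences of the 37 endothelial genes in the sorts for CD31 and CD146. Left, CD31+ and CD146+ (4 libraries) minus the other sorts (3 libraries) of S16 to S23 on the log2 scale, with lines for the 95% interval; right, each library minus the mean of the other sorts of its own run. Every interval on the left covers 0, and on the right the points lie within 1 of 0 except TAL1 in S22, at -6.60 and drawn at the edge.

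Across the 15 liver libraries the run of label numbers went with the level of most endothelial genes. In a fit with both terms, 28 of 37 members differed between runs given the sorted group (36.5% of all genes, adjusted p under 0.05 by limma's F test). With the run given, 0 differed between sorted groups (0.376% of all genes), and 21 members had an unadjusted p under 0.05 (14.3% of all genes). That 0 did not hold without S14 or without S17, and each of these fits left a sorted group with a lone library. The run alone held a median of 76.9% of a member's sum of squares over the liver libraries (22.2 to 96.7%) and the sorted group alone 35.8% (2.23 to 79.9%). The same medians over all genes were 62.6% and 37.9%. The shares overlap, since runs and sorts are unevenly crossed. The run share was the larger in 29 of 37 members and in 73.3% of all genes.

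**Figure D2:**
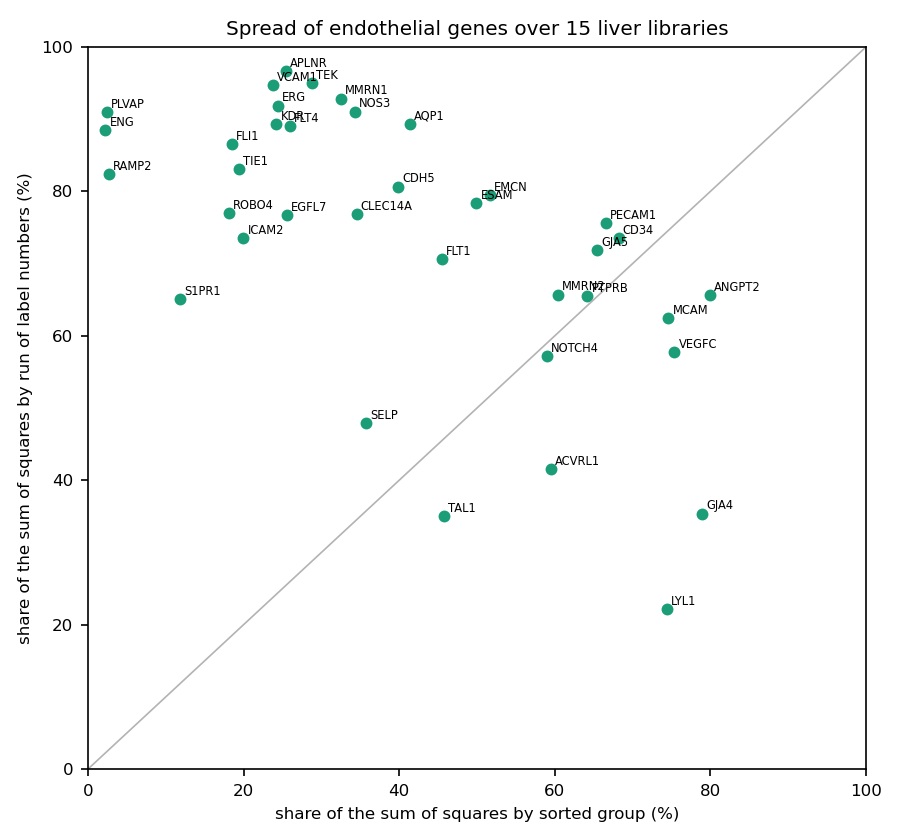
Share of each endothelial gene's sum of squares over 15 liver libraries that sorted group alone (x axis, %) and run of label numbers alone (y axis, %) account for; each point is a gene and the line marks equal shares. The run share was larger for 29 of 37 genes, with APLNR at the top (96.7%), and LYL1 had the lowest run share (22.2%).

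KDR, the main VEGF receptor of blood endothelium, had a run share of 89.3%. In the liver libraries of S12 to S14 it was at 20386, 24923 and 16795, and in S3 to S5 at 7955, 5950 and 3312, in the same order of sorts. S8 and S9 held 8005 and 9541, and the 7 libraries of S16 to S23 lay between 16118 and 20803. The first of these runs was thus above the others of S3 to S14 without overlap, in CD45+, CD45-/EpCAM+ and CD45-/EpCAM- cells alike. The adjusted p for the run was 0.00023.

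TEK, the angiopoietin receptor, went the same way, with 1972 to 2861 in S3 to S5, 2984 and 5020 in S8 and S9, 7286 to 11430 in S12 to S14 and 10475 to 12563 in S16 to S23. FLT4, the receptor for VEGFC and best known in lymphatic endothelium, was at 551 to 1106 in S3 to S5 and at 2732 to 4447 in S12 to S14. APLNR, the apelin receptor, was at 942 to 1242 in S3 to S5 and 3307 to 4113 in S12 to S14. In all 3 genes the liver libraries of those runs did not overlap.

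PLVAP, which forms the diaphragms of fenestrae, EGFL7, a matrix protein that endothelium secretes, and VCAM1, which binds leukocytes, had another order of runs. PLVAP was at 36116, 33719 and 26531 in S12, S13 and S14, above each of the other liver libraries, which held 10313 to 19961. VCAM1 was at 3220 to 4319 in S12 to S14 and at 1408 to 1878 in S16 to S23. EGFL7 was at 4402 to 7030 in S12 to S14 and 2170 to 2607 in S16 to S23. In these members the run S12 to S14 lay above S16 to S23 without overlap, while the ranges of KDR and TEK in these runs overlapped.

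The spread inside a run was small in the later runs. The ratio of the highest to the lowest deeply sequenced library had a median of 1.11 over the members in S16 to S19, which span 4 sorts, and 1.04 for S21 against S23. It was 1.28 for S8 against S9, 1.40 for S12 against S14 and 2.24 in S3 to S5. Over all 13 deeply sequenced liver libraries the median ratio was 4.10. The corresponding medians for all genes were 1.14, 1.07, 1.14, 1.19, 1.64 and 2.53.

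S5, a CD45-/EpCAM- library, lay at the bottom for many members. CDH5, the VE-cadherin of adherens junctions, was at 3231 in S5, against 6974 in S4 and 10740 in S3. MMRN2, a multimerin of the endothelial matrix, was at 597 in S5, 1719 in S4 and 2755 in S3. TAL1, a transcription factor shared by blood and endothelial precursors, ran the other way, at 355 in S5 against 68 and 81 in S4 and S3. Its relative LYL1 was at 281 in S5 against 76 and 82. The summed level of 5 erythroid genes was 42895 in S5 and 12268 in S14, the other CD45-/EpCAM- library, and 57.9 to 3288 in the other liver libraries. Its part in the TAL1 and LYL1 values was not tested.

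Without regard to run, 8 members differed among the 5 liver groups by the F test, ANGPT2, CD34, GJA4, GJA5, MCAM, PECAM1, PTPRB and VEGFC, where 4.98% of all genes did. The count was 0 once the run (0.154% of all genes) or the label range was a term. It also fell without S5 and was 14 without S19, with no share of all genes given here for these refits. It was 5 without any one of S2, S3, S4, S7, S8, S11, S15, S16, S20, S21, S22 or S23. Between label ranges, the liver libraries of S16 to S23 were higher than those of S3 to S14 for AQP1 (1.40 on the log2 scale), ERG (1.04) and MMRN1 (1.52), and lower for 0 members, against 3.78% of all genes called, 2.27% higher and 1.51% lower. The members' median was 0.55 and that of all genes 0.03. The ranges did not overlap for 5 members, PTPRB, MMRN1, PECAM1, MMRN2 and AQP1, all higher in S16 to S23 (7.38% of all genes), and 0 were wholly lower (8.32%). Sorts are unevenly spread over the ranges, since CD31+ and CD146+ libraries lay only in S16 to S23 and CD45-/EpCAM- libraries only in S5 and S14. The count was 0 without S18 or without S19 and 1 without S8 or without S9.

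**Figure D3:**
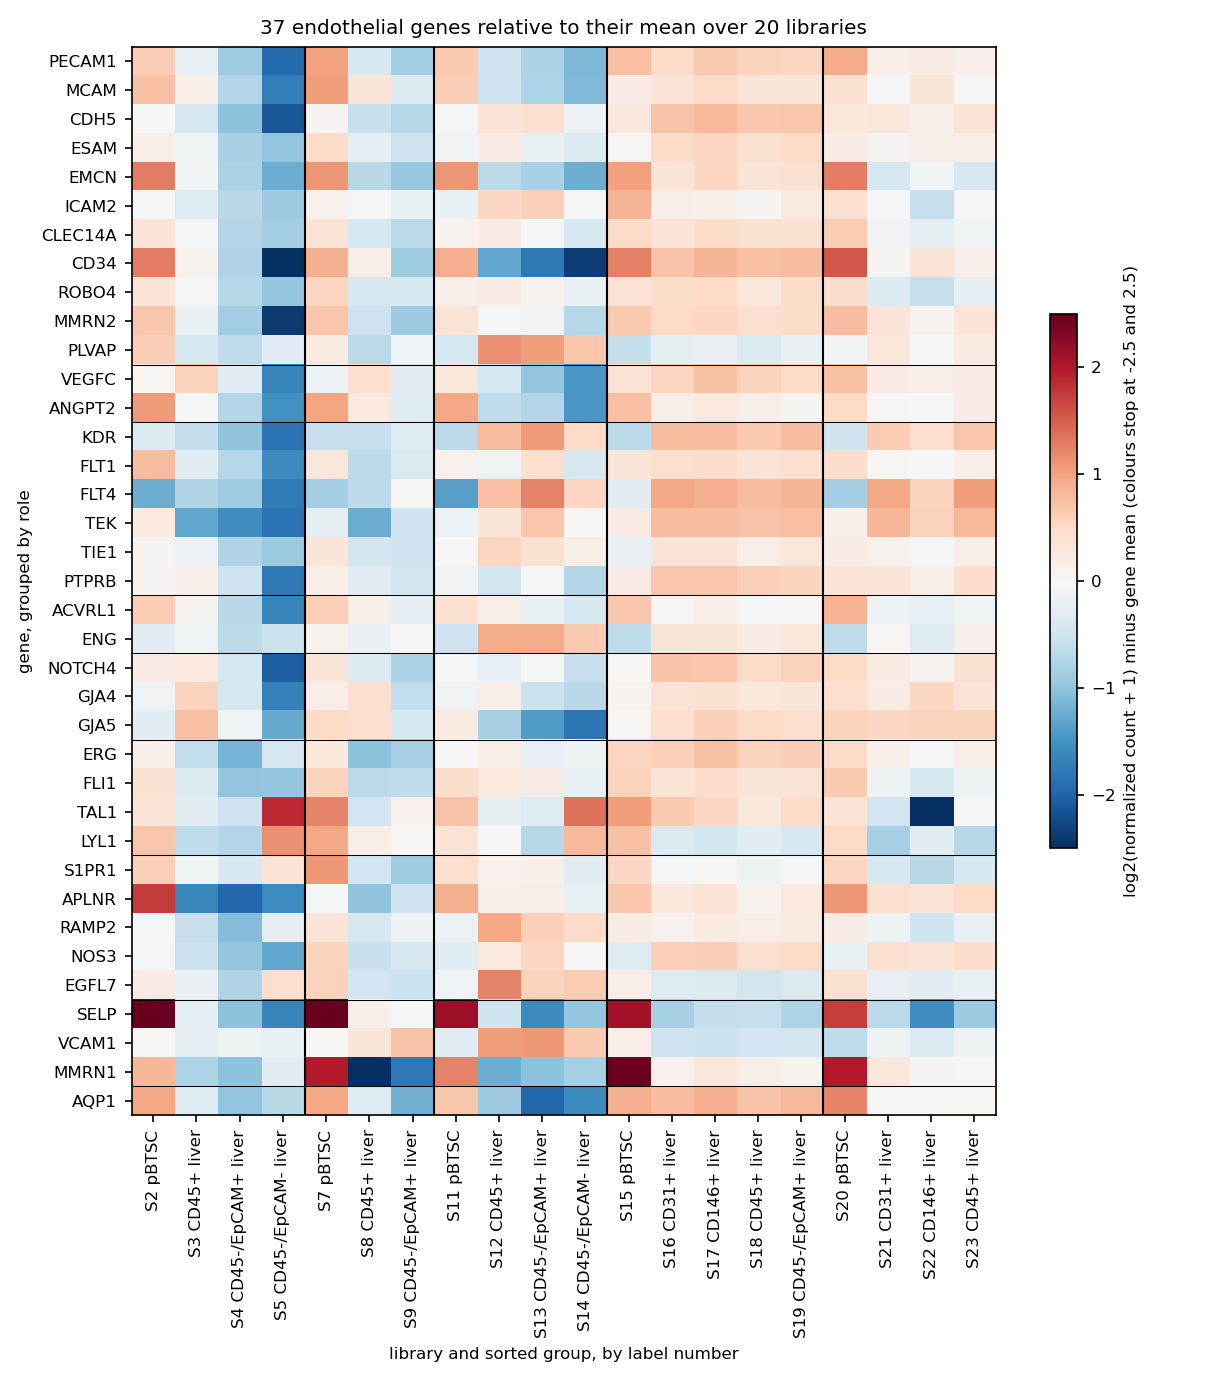
The 37 endothelial genes (rows, grouped by role) in 20 libraries (columns, by label number; vertical lines separate the runs); colour gives log2(normalized count + 1) minus the gene's mean over the libraries. The 5 pBTSC columns open the runs and are darkest red for SELP and MMRN1; the columns S16 to S19, of 4 sorts, look alike, while S5 is blue for most genes and red for TAL1 and LYL1.

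The comparisons of pBTSCs with each liver group follow, by the role of the genes. They share the 5 pBTSC libraries and so are not independent of each other. In bulk RNA, fewer cells of a type and less RNA per cell cannot be told apart. Against CD45-/EpCAM+ liver cells, 9 of the 37 members were called higher in pBTSCs and 0 lower, where 25.1% of all genes were called, 14.8% higher and 10.3% lower. The members' median was 0.52 and that of all genes 0.08. Against CD45-/EpCAM- cells 19 were higher and 0 lower (36.6% of all genes called, 20% higher and 16.6% lower), with medians of 1.11 and 0.04. Against CD45+ cells 6 were higher and 0 lower (20.6% called, 11% higher and 9.54% lower), with medians of 0.38 and 0.07. Single libraries moved these counts, to 14 against CD45-/EpCAM+ cells without S19 and 3 against CD45+ cells without S20. Without S19 the calls over all genes against CD45-/EpCAM+ cells also rose, from 3905 to 4338. The count against CD45-/EpCAM- cells fell without S5, which left a lone library in that group. Shares of all genes in the other refits are not given here, so these moves cannot be ascribed to the members.

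Against CD31+ cells 3 members were higher and 1 lower (14.4% of all genes called, 6.73% higher and 7.62% lower), with medians of 0.19 and 0.09. Fewer were called without S21, which left a lone CD31+ library. The CD31+ and CD146+ libraries lay only in S16 to S23 and the CD45-/EpCAM- libraries only in S5 and S14, while pBTSCs lay in both label ranges. In the counts of these comparisons, sort and label range thus cannot be told apart. Against CD146+ cells 3 were higher and 0 lower (22.2% called, 14.5% higher and 7.75% lower), with medians of 0.26 and 0.18. In simulated data without differences this comparison gave 389 false calls among 14620 genes, so its calls are to that extent less secure. The simulated libraries varied independently and held no differences between runs, as the real ones did. The 0 false calls of the other comparisons therefore do not show those to be secure. Without the shallow S22, 1 member was higher than in CD146+ cells (10.1% of all genes called, 4.87% higher and 5.23% lower, all 3 shallow libraries left out). At an unadjusted p under 0.05 the counts of members were 16 against CD45-/EpCAM+, 23 against CD45-/EpCAM-, 15 against CD45+, 9 against CD31+ and 9 against CD146+. Of all genes 47.4, 56.2, 43, 28.2 and 38.8% were under 0.05 in the same order. With the run as a term, chosen after seeing the data, 6 members were higher and 1 lower than in CD31+ cells (16.6% of all genes called, 8.01% higher and 8.54% lower), and 5 higher and 1 lower than in CD146+ cells (24% called, 15.5% higher and 8.58% lower). The pBTSC libraries lay wholly above the CD45-/EpCAM+ libraries for 10 members (19.2% of all genes) and wholly below for 0 (14.1%). Against CD45-/EpCAM- libraries the counts were 24 above (33.6% of all genes) and 1 below, TAL1 (30%), and against CD45+ libraries 11 above (17.8%) and 0 below (13.5%). Against CD31+ libraries 11 were above (27.4%) and 4 below, TEK, KDR, FLT4 and CDH5 (20.6%). Against CD146+ libraries 9 were above (25.4%) and 3 below, TEK, KDR and FLT4 (16.8%). Groups of 2 libraries separate more readily than groups of 5.

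Over the 5 comparisons 21 members were called higher at least once, 1 was called lower, and 15 were never called, where 28.6, 18.9 and 52.8% of all genes were.

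**Figure D4:**
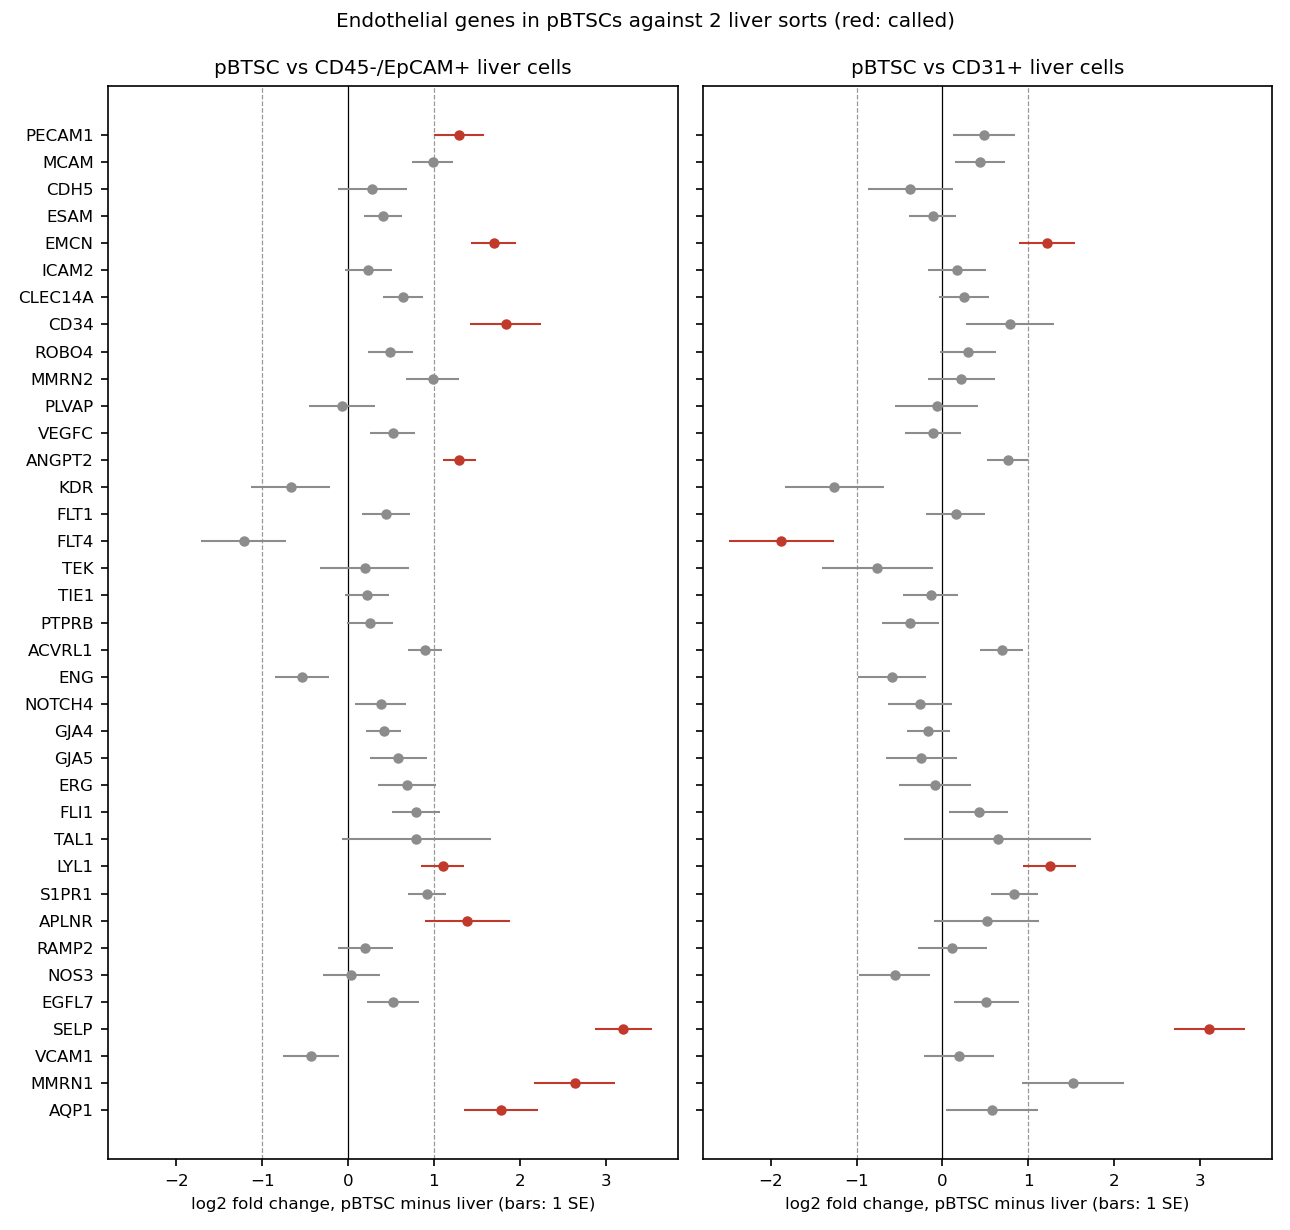
Log2 fold changes of the 37 endothelial genes, pBTSCs minus CD45-/EpCAM+ liver cells (left, 5 against 4 libraries) and minus CD31+ liver cells (right, 5 against 2); bars are 1 SE, dashed lines mark a fold change of 1 on the log2 scale and red marks calls. SELP was the farthest right in both (3.21 and 3.11), and FLT4 the farthest left (-1.22 and -1.88), called against CD31+ only.

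Among the proteins of activated endothelium, SELP was the member with the largest difference. SELP encodes P-selectin, which captures leukocytes and is also held in platelets. In pBTSCs it was at 2094, 2369, 1306, 1264 and 984 normalized counts in S2, S7, S11, S15 and S20. In CD45-/EpCAM+ liver cells it was at 145, 291, 98.3 and 173 in S4, S9, S13 and S19, and over the 15 liver libraries the lowest was 93.7, the median 173 and the highest 325. The lowest pBTSC library was above the highest liver library. The log2 fold changes were 3.21 ± 0.33 (SE, adjusted p = 1.1e-06) against CD45-/EpCAM+, 3.67 against CD45-/EpCAM-, 2.77 against CD45+, 3.11 against CD31+ and 3.43 against CD146+ cells. SELP was the only member called in all 5 comparisons and the only one left against CD146+ without S22.

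MMRN1, a multimerin of endothelium and platelets that binds coagulation factor V, was next. The pBTSC libraries held 1696, 3769, 2226, 5161 and 3773. The CD45-/EpCAM+ libraries held 463, 274, 463 and 1008, and all liver libraries 163 to 1159. The groups did not overlap, and the log2 fold change was 2.64 ± 0.48 (SE, adjusted p = 0.00031) against CD45-/EpCAM+, 2.25 against CD45-/EpCAM- and 2.57 against CD45+. Against CD31+ and CD146+ cells it was 1.52 in both (adjusted p = 0.093 and 0.0655), not called, and with the run as a term it was 2.27 in both and called (0.00142 and 0.00131). VCAM1 was called in no comparison and lay below 0 against CD45-/EpCAM+ cells (-0.44 ± 0.33, adjusted p = 0.309).

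SELP and MMRN1 are platelet proteins too, and 5 genes of platelets and megakaryocytes were read beside them. Their summed level was 2794 to 3359 in pBTSCs and 1579 to 3757 in the liver libraries. ITGA2B was the largest of the 5 in every library, so the sum does not rank platelet content. In pBTSCs against CD45-/EpCAM+ cells 0 of the 5 were higher and 1, PPBP, was lower. ITGA2B and ITGB3, the chains of the platelet fibrinogen receptor, both differed by 0.24 (adjusted p = 0.151 and 0.448), and ITGB3 was called higher against CD45-/EpCAM- cells (1.45). PPBP, a platelet chemokine, and GP1BB, a chain of the platelet receptor for von Willebrand factor, were at 2 to 19 and at 0 to 7 in the pBTSC libraries. In the liver libraries they were at 128 to 911 and 0 to 68. Both were called lower against CD45-/EpCAM- (-4.27 and -3.43) and CD45+ cells (-5.82 and -3.31), as was GP9, of the same 5, against CD45+ cells (-1.26). Against CD31+ and CD146+ cells PPBP alone was called, and lower.

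Of the 11 junction and surface members with a row, 6 were called higher in pBTSCs in at least 1 comparison and 0 lower, beside the 28.6 and 18.9% of all genes. PECAM1 was at 28048, 36576, 28776, 30691 and 34614 in the pBTSC libraries. CD45-/EpCAM+ cells held 9903, 10163, 10482 and 25978, the last in S19. The groups did not overlap, at 1.29 ± 0.29 (SE, adjusted p = 0.00203), and the exact permutation p was 0.0159, the smallest that 5 against 4 libraries allow. S19 lay much closer to the pBTSCs than S4, S9 and S13 did. Against CD31+ cells, selected for this protein, PECAM1 was 0.49 ± 0.36 higher in pBTSCs (adjusted p = 0.439), not called, although the 5 libraries lay above both CD31+ ones.

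CD34, a sialomucin of capillary endothelium and of progenitor cells, was at 6476, 4931, 4995, 6357 and 7867 in pBTSCs. CD45-/EpCAM+ cells held 1587, 1450, 771 and 4563, and the highest of all liver libraries was 4797. The difference was 1.84 ± 0.41 (SE, adjusted p = 0.00198) against CD45-/EpCAM+, 3.67 against CD45-/EpCAM-, where S5 and S14 held 433 and 519, and 1.22 against CD45+ cells. EMCN, endomucin, a sialomucin of capillary and venous endothelium, was at 3203 to 3852 in pBTSCs and at 668 to 2269 in liver, and its differences were 1.70, 2.38, 1.46, 1.22 and 0.93 in the order CD45-/EpCAM+, CD45-/EpCAM-, CD45+, CD31+ and CD146+, the first 4 of them called. Both genes were above every liver library in all 5 pBTSC libraries. With the run as a term CD34 was also called against CD31+ (1.29, adjusted p = 0.0241) and CD146+ cells (1.08, 0.0402), and EMCN against CD146+ cells (1.16, 0.00377).

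The other surface members moved less. MCAM missed the fold threshold against CD45-/EpCAM+ cells (0.98 ± 0.23, adjusted p = 0.00301; 1.01 and called with the run as a term) and was called against CD45-/EpCAM- cells (2.01). MMRN2 was also called against CD45-/EpCAM- (2.18), as was CDH5 (1.26, adjusted p = 0.0424). CDH5 differed by 0.28 ± 0.40 from CD45-/EpCAM+ cells (adjusted p = 0.604), with 13953 to 17225 in pBTSCs and 6974, 8626, 18565 and 22978 in S4, S9, S13 and S19. The pBTSC range thus lay inside the liver range. ESAM and ICAM2, endothelial adhesion molecules, CLEC14A, a lectin-like receptor for MMRN2, ROBO4, an endothelial guidance receptor, and PLVAP were called in 0 comparisons, with differences from CD45-/EpCAM+ cells of -0.07 (PLVAP) to 0.64 (CLEC14A).

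**Figure D5:**
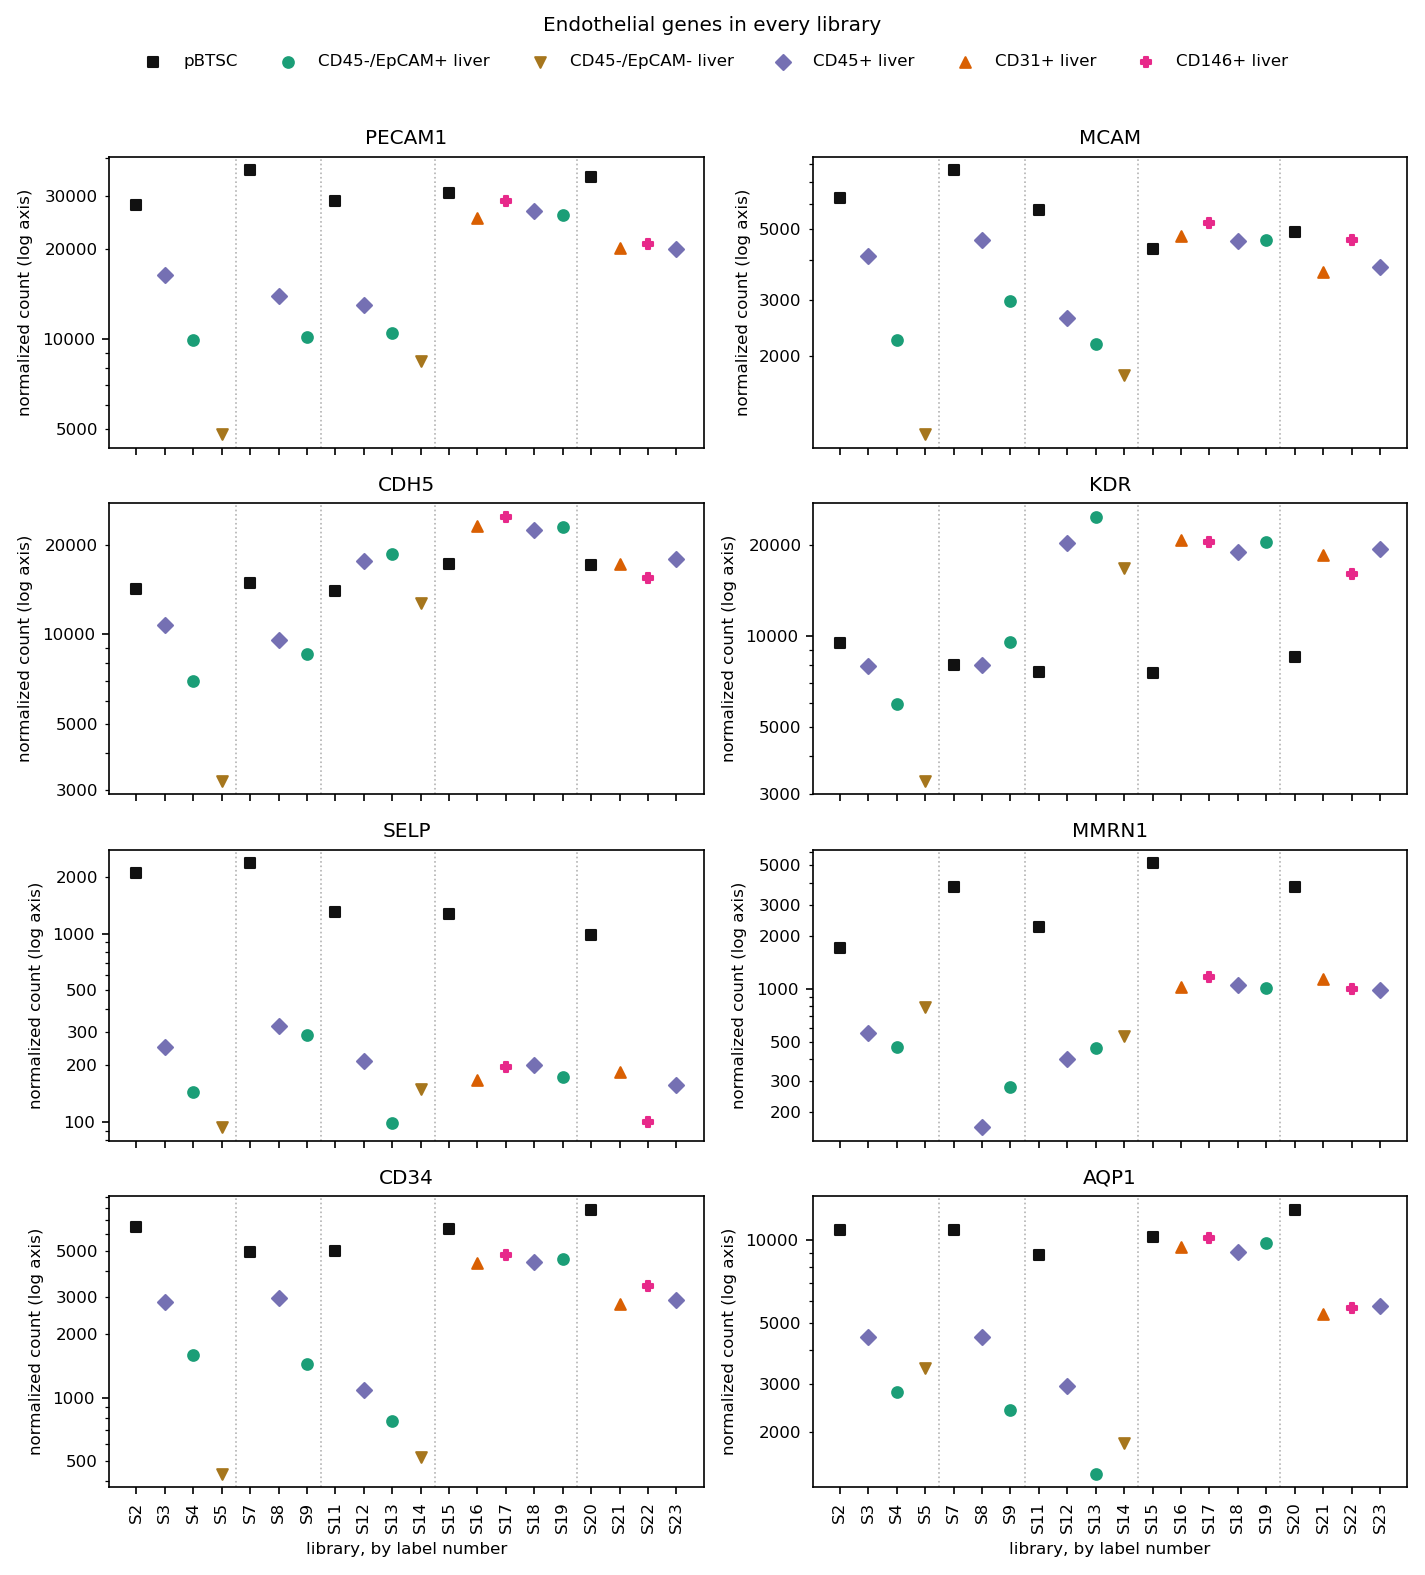
Normalized counts (log axis) of 8 endothelial genes in each of the 20 libraries, ordered by label number; symbols give the sorted group and dotted lines separate the runs. PECAM1, SELP, MMRN1, CD34 and AQP1 are highest in the pBTSC library of every run, whereas pBTSC values of CDH5 and KDR lie within the range of the liver libraries.

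Both ligands were called higher in pBTSCs in some comparisons. ANGPT2, which acts on TEK and is made by endothelium itself, was at 2159, 2058, 2031, 1746 and 1464 in pBTSCs. CD45-/EpCAM+ cells held 619, 826, 617 and 1075, and the highest of all liver libraries was 1226. The groups did not overlap, with 1.29 ± 0.19 against CD45-/EpCAM+ (SE, adjusted p = 4.9e-05) and 2.34 against CD45-/EpCAM- cells. Against CD45+, CD31+ and CD146+ cells the differences of 0.87, 0.76 and 0.73 passed the adjusted p (0.00125, 0.0359 and 0.0306) but not the fold threshold. VEGFC, the ligand of FLT4, was called against CD45-/EpCAM- cells (1.82), where S5 and S14 held 443 and 518 against 1283 to 2372 in pBTSCs, and differed by 0.00 from CD45+ cells.

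The receptors gave the one lower call. FLT4 was at 797, 1041, 735, 1545 and 1043 in pBTSCs and at 3665 and 3655 in the CD31+ libraries, a difference of -1.88 ± 0.61 (SE, adjusted p = 0.0432), with no overlap. The call was lost with a pseudocount of 0.1, without a filter on low values, with libraries rescaled to the same total and with the label range as a term. Against CD45-/EpCAM+ cells FLT4 was at 1006, 1913, 4447 and 3370, and the difference of -1.22 ± 0.49 was not called (adjusted p = 0.0598). The S4 value lay within the pBTSC range. With the run as a term FLT4 was called lower against CD45-/EpCAM+ (-1.32), CD45+ (-1.14), CD31+ (-1.39) and CD146+ cells (-1.16), with adjusted p of 0.00314, 0.0056, 0.0245 and 0.0423.

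KDR was also lower in value, by -0.67, -0.73, -1.26 and -1.15 against CD45-/EpCAM+, CD45+, CD31+ and CD146+ cells, with no call (adjusted p = 0.268, 0.21, 0.157 and 0.151). It was at 7545 to 9509 in pBTSCs, and the liver libraries S3 and S8 lay within that range (7955 and 8005). FLT1, the VEGF receptor that binds and buffers the ligand, and PTPRB, the phosphatase that acts on TEK and VE-cadherin, were called higher against CD45-/EpCAM- cells (1.38 and 1.40). TEK and its partner TIE1 were called in 0 comparisons, and TEK lay below both CD31+ libraries in all 5 pBTSC libraries (5963 to 8371 against 12015 and 12563, adjusted p = 0.509).

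ACVRL1, the ALK1 receptor for circulating bone morphogenetic proteins, was at 3357 to 4699 in pBTSCs and 804 to 2868 in all liver libraries, with no overlap. Its difference was 0.90 ± 0.20 against CD45-/EpCAM+ cells (adjusted p = 0.00192), under the fold threshold, and 1.67 against CD45-/EpCAM- cells, called. ENG, endoglin, its co-receptor, was called in no comparison and had negative differences in all 5 (-0.40 to -0.59). It was at 8303 to 13755 in pBTSCs and at 20368 to 24552 in S12 to S14, the highest liver libraries. The arterial members NOTCH4, GJA4 and GJA5 were called against CD45-/EpCAM- cells only (1.52, 1.29 and 1.75).

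Of the transcription factors, FLI1, an ETS factor of endothelium and blood, was at 2630 to 3172 in pBTSCs, above all CD45-/EpCAM+ libraries (1012 to 2548), and was called against CD45-/EpCAM- cells (1.11). Its relative ERG was called in 0 comparisons, with 2435 to 3496 in pBTSCs and 2387 to 4033 in the liver libraries of S16 to S23. LYL1 was at 163 to 249 in pBTSCs and called against CD45-/EpCAM+ (1.10 ± 0.25, adjusted p = 0.00204), CD31+ (1.25) and CD146+ cells (1.02). It was no longer called against CD146+ without S22 or with the run as a term (0.93). TAL1 was called against CD146+ cells alone (3.78), a fitted value that rests on the 0 reads of S22, and was not called without that library.

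Among the other signalling genes, APLNR was called against CD45-/EpCAM+ (1.39 ± 0.49, adjusted p = 0.033), CD45-/EpCAM- (1.74) and CD45+ cells (1.26). Its pBTSC values were 12372, 3593, 6824, 5928 and 7875, with S7 below S13 and S19 (4113 and 4386), so that these groups overlapped. S1PR1, a receptor for sphingosine 1-phosphate that steadies junctions, was at 3237 to 5196 in pBTSCs and 1323 to 3103 in liver, without overlap, and its differences of 0.59 to 0.96 missed the fold threshold. RAMP2, a partner of the adrenomedullin receptor, NOS3, the endothelial nitric oxide synthase, and EGFL7 were called in 0 comparisons.

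AQP1, a water channel of endothelium, red cells and bile duct epithelium, was at 10844, 10879, 8867, 10249 and 12926 in pBTSCs. CD45-/EpCAM+ cells held 2807, 2414, 1414 and 9734. The S19 value lay inside the pBTSC range, so the groups overlapped, and the difference was 1.78 ± 0.43 (SE, adjusted p = 0.00335). AQP1 was also called against CD45-/EpCAM- (2.09) and CD45+ cells (1.10), and not against CD31+ or CD146+ cells (0.58 and 0.49). With the run as a term it was called against CD31+ cells (1.09, adjusted p = 0.0425). The summed level of 7 bile duct genes was 7696 to 16630 in pBTSCs and 8375 to 28230 in liver. CDH1 was the largest of the 7 in every library, at 4046 to 6839 in pBTSCs and 4934 to 17101 in liver. KRT7 was at 440 to 2081 in pBTSCs and 162 to 954 in liver, so the sum does not rank duct content. The summed level of the erythroid genes was 998 to 4057 in pBTSCs. Their part in AQP1 was not tested.

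Taking all 15 liver libraries together, 7 members lay wholly above them in pBTSCs, ACVRL1, SELP, MMRN1, ANGPT2, S1PR1, EMCN and CD34, where 11.9% of all genes did. None lay wholly below, where 9.21% of all genes did. Within runs, the pBTSC library was above each liver library of its own run in 5 of 5 runs for 12 members, PECAM1, EMCN, CD34, MMRN2, ANGPT2, ACVRL1, FLI1, S1PR1, APLNR, SELP, MMRN1 and AQP1, as it was for 18.8% of all genes. It was below in 5 of 5 runs for 0 members (13.7% of all genes) and in 4 of 5 for FLT4 (8.81%).

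In value these differences varied with the label range, but a change between ranges was called in no member. In S2 to S14 PECAM1 differed by 1.59 between pBTSC and liver libraries and in S15 to S23 by 0.46. CD34 differed by 2.20 and 0.89, AQP1 by 1.87 and 0.59, and MCAM by 1.39 and 0.05. SELP held 3.38 and 2.75, MMRN1 2.54 and 2.08, and ACVRL1 0.89 and 0.82. For 11 members, and 25.2% of all genes, the sign itself differed, among them CDH5 (0.55 and -0.24), TEK (0.63 and -0.58) and NOS3 (0.44 and -0.71). The difference between ranges was tested as an interaction and called in 0 members, where 2.47% of all genes were called. At an unadjusted p under 0.05 there were 7 members, and 19.4% of all genes. The liver sorts, the genotype of the pBTSCs and the ALB and FGB levels of the pBTSC libraries also differ between the ranges. The RNA integrity that the paper lists for S20 is above that for S2, S7 and S11. The part of these in the differences was not tested.

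The other genes of the vascular pathways were on a list of 42, of which 38 were tested. Against CD45-/EpCAM+ cells 10 were higher in pBTSCs, 0 lower and 28 not called, with a median of 0.73, beside 0.08 for all genes. Of all genes 14.8% were higher and 10.3% lower in that comparison. VWF, von Willebrand factor, was at 13150 to 30693 in pBTSCs and 2131 to 6954 in liver (2.39 ± 0.28, adjusted p = 3.8e-06). JAM2, a junction protein of endothelium, differed by 1.98, GATA2, an endothelial and blood transcription factor, by 1.82, ANGPT1, the activating ligand of TEK, by 1.47 and SOX17, an arterial and biliary factor, by 1.40. Against CD45-/EpCAM-, CD45+, CD31+ and CD146+ cells the counts were 22 higher and 0 lower, 6 and 2, 3 and 1, and 4 and 1. Of all genes 20, 11, 6.73 and 14.5% were higher in the same order, and 16.6, 9.54, 7.62 and 7.75% lower. CXCL12, a chemokine, was lower in pBTSCs than in CD45+ (-1.36), CD31+ (-2.05) and CD146+ cells (-1.96). Its difference from CD45-/EpCAM+ cells was -1.11 (adjusted p = 0.0648), and those of SMAD6, PROX1 and VEGFA were -0.97, -0.88 and -0.79, none of them called. In S16 to S23, 0 of the 38 were called between the CD31+ and CD146+ libraries and the other sorts, where 0% of all genes were.

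Genes of liver sinusoidal endothelium lay on the opposite side. All 8 of a list of 8 were lower in pBTSCs than in CD45-/EpCAM+ cells, with a median of -3.91, and 8, 8, 7 and 7 were lower against CD45-/EpCAM-, CD45+, CD31+ and CD146+ cells. Of all genes 10.3% were lower in the first comparison and 16.6, 9.54, 7.62 and 7.75% in the others. The summed level of the 8 was 5116 to 9437 in pBTSCs and 28851 to 149578 in the liver libraries. STAB2, stabilin-2, a scavenger receptor of sinusoids, was at 41 to 153 in S2, S7, S11 and S15 and at 987 in S20, against 5300 to 60522 in liver. STAB2 also followed the runs, with 5300 to 8269 in S3 to S5 and 40206 to 60522 in S12 to S14. In S16 to S23 the sinusoidal sum was 75599 to 101515 in the CD31+ and CD146+ libraries and 72243 to 104992 in the other sorts.

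Genes of other cell types moved between the same groups. Against CD45-/EpCAM+ cells, all 8 hepatocyte genes and all 8 macrophage genes were lower in pBTSCs, 8 of 9 fibroblast and smooth muscle genes were higher (median 3.47), and of 8 leukocyte genes 2 were higher and 1 lower. Of 7 bile duct genes 0 were higher and 3 lower, and of 5 erythroid genes 1 was higher and 0 lower. Of all genes 14.8% were higher and 10.3% lower. The fibroblast and smooth muscle sum was 436182 to 1699146 in pBTSCs and 38914 to 198107 in liver, and the leukocyte sum 3917 to 9406 and 4598 to 18920. CD34 is also made by fibroblasts and MCAM by smooth muscle and pericytes. The part of these cells in the endothelial values was not tested.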

How the data were processed

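Poly(A) RNA was sequenced from stranded libraries. Per the labels the authors used STAR, Salmon and DESeq2; versions, roles, genome build and annotation are not given in the sources used here. The deposited table holds normalized counts, a signal in which the authors divided gene counts by a size factor per library. Within 0.05 reads, 60.3 to 84.7% of low values in a library were whole reads, so reads were not recovered and count models were not used; depth was estimated from the step.

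Here values were log2(normalized count + 1), for genes at 10 or more in at least 2 libraries. They were tested with limma 3.58.1 (trend) in R 4.3.3, tried first on simulated data. Simulated libraries without differences gave 389 false calls for pBTSCs against CD146+ cells, 3 of them in genes with a mean above 1000. The other comparisons simulated gave 0. No differences between runs were simulated, so the false calls of the fits in their presence are not known. One fit of 6 groups gave the pBTSC and liver comparisons; the 7 liver libraries S16 to S23 were fitted alone. The fit of sort and run over the 15 liver libraries was added after seeing the data. Single genes had exact permutation tests (scipy 1.17.1). The study gives each pBTSC library to a piglet of its own. The sources used here do not tie the liver libraries to animals, so p-values measure the spread between libraries, which may be technical. The members, lists and tests were chosen with earlier results of these data known. Plotted for every library were PECAM1, MCAM, CDH5 and KDR. Plotted with them were the 4 members with the largest called differences between pBTSCs and CD45-/EpCAM+ cells (SELP, MMRN1, CD34 and AQP1). Others named were chosen after their values were seen. Alternatives were the pseudocount, scaling, filter, weights, groups fitted, range and run terms, and each library left out. No sequence is printed.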

Additional observations from a re-analysis of the deposited data

Results flagged for a closer look

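A library far from the rest of its group, by Dixon's test at 95%, was found in 6 of 111 groups of 4 or 5 libraries over the 37 endothelial genes, where chance alone gives about 1 in 20, or 5.55. In CD45-/EpCAM+ cells S19 was apart for PECAM1 (25980 normalized counts, next value 10480) and for EMCN (2045, next value 917). In CD45+ cells S12 was apart for EGFL7 (7030, next value 2642) and, on the low side, for GJA5 (1984, next value 4686). In pBTSCs S7 was apart for S1PR1 (5196, next value 3672) and S11, on the low side, for MMRN2 (4020, next value 4993). S19 is the only CD45-/EpCAM+ library of the label range S16 to S23.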

How the results depend on the processing

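Of 620 values recomputed over 24 results, 559 kept their direction and side of the threshold. Rescaling to the same total moved the median of all genes between pBTSCs and CD45-/EpCAM+ cells from 0.08 to 0.39, their calls from 2302 higher and 1603 lower to 3308 and 1237, and the members called to 14 against CD45-/EpCAM+, 10 against CD45+ and 7 against CD146+ cells. Against CD146+ cells the count was 1 without the shallow libraries, 5 with only the compared groups and 6 with a run term (a term chosen after seeing the data), which gave 7 against CD31+ cells. FLT4 was lower than in CD45-/EpCAM+ cells under the range, run, array-weight and compared-group fits. Among the liver groups the count was 5 with no filter and 0 with a range or a run term; sorts given the run gave 2 with a pseudocount of 10; array weights gave 10 between ranges. The cause was not tested in any of these.

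Leaving out each library in turn, counts of members called ranged from 8 to 14 against CD45-/EpCAM+ (14 without S19), 12 to 21 against CD45-/EpCAM- (12 without S5), 3 to 7 against CD45+ (3 without S20), 1 to 5 against CD31+ (1 without S21) and 1 to 4 against CD146+ (1 without S22). They ranged from 0 to 14 among the liver groups, 0 to 4 between ranges, 24 to 32 for the run given the sort and 0 to 12 for the sort given the run (12 without S14, 6 without S17). In S16 to S23 they were 0 to 0 for both sorts and for CD31+, and 0 to 1 for CD146+ (1 without S17). Groups left with 1 library are assumed to vary like the rest. Shares of all genes are not given here for these refits, so the counts show how firm a count was and nothing particular to the members.

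Differences near 0 changed sign. In S16 to S23 PECAM1 was 0.00029 with array weights and 0.0287 without the shallow libraries, CDH5 0.0396 and 0.0345, and KDR 0.0333 and 0.0235. Without each library PECAM1 ranged from -0.167 to 0.0449, MCAM from -0.0237 to 0.169, CDH5 from -0.201 to 0.0345 and KDR from -0.0992 to 0.0235, and CDH5 against CD45-/EpCAM+ cells from -0.0016 to 0.572. MCAM was called against CD45-/EpCAM+ cells when rescaled to the same total (1.29), with array weights (1.02) and with a run term (1.01). The labels give no replicate numbers to pair libraries by, and the run term was the nearest to a block. Depth limits TAL1, LYL1 and SELP, where 3 reads were worth 156 normalized counts in S22 and 77.1 in S13.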
